A study of Homo sapiens with 12 samples.

Results

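The genes described here build, cap, cross-link and pull on the actin cytoskeleton. The list holds 44 gene symbols, from the cytoplasmic actins ACTB and ACTG1 through tropomyosins, calponins and non-muscle myosin II to the ERM proteins that tie filaments to the membrane. A gene was measured where at least 1 tested probe of the bead array carried its symbol. That gave 39 of the 44 genes, among 9203 named genes tested, and 61 of the 14804 tested probes. ACTR2, TPM3, CNN1, FLNA and CAP1 had no tested probe under their symbols. Where a gene had several probes, the one with the highest mean over all arrays stands for it, and other probes are described where they differ in sign with either siRNA or by over 0.5 on the log2 scale.

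RNA came from Caco-2 cells, an established human colon adenocarcinoma line of epithelial origin, transfected with siRNA by lipofection and hybridized to Illumina HT12 bead chips. The 12 arrays form 4 groups of 3. Cells received ZNF658 siRNA 1 (Ambion), the sense control siRNA of Ambion (control siRNA 1), ZNF658 siRNA 2 (Dharmacon, a pool) or the siGENOME non-targeting siRNA of Dharmacon (control siRNA 2). ZNF658 is a zinc finger protein, and the study asked which transcripts depend on it. No probe named ZNF658 was among those tested, so its depletion was not checked on these arrays. By RT-qPCR, the study reports lower ZNF658 mRNA in Caco-2 cells with each of its siRNAs. The labels call the arrays of a group replicates without stating whether they were separate cultures. The P-values below therefore measure the spread between these samples only.

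Actin monomers join into filaments. Thymosins and profilins bind the monomers, the Arp2/3 complex starts branches, capping protein closes the fast-growing end and cofilin cuts old filaments. Tropomyosins lie along the filament and set which myosins and cofilin may reach it, and caldesmon and the calponin family bind there too. In enterocytes, bundled filaments form the core of the microvilli. Many of these genes are known targets of serum response factor, which binds the CArG box in their promoters. The zinc transcriptional regulatory element (ZTRE), a palindrome of a pair of half-sites with a spacer, is the element named in the study for ZNF658.

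The promoters that hold a CArG box are shown because the genes behind them include several of those described below. RefSeq promoter windows of 300 bases (GRCh38.p14, 250 bases before to 50 bases after the start site) were matched by symbol to 39 of the 44 genes, which have 63 such windows. TAGLN, ACTB, ARPC1B, MYL9 and PFN2 were not matched and not searched. Both strands were searched, for the ZTRE with a spacer of up to 50 bases and for the CArG box, each read as the motif of that name. The 3′ half-site of the ZTRE was read as the reverse complement of the 5′ one, 7 letters each, which is longer than the form printed in the study's text. A ZTRE was found in 13 of the 63 windows (20.6%), against 9.53% of all 35116 windows of this length. With the shorter 3′ half-site, chosen after seeing the data, it was found in 23 of the 63 (36.5%), against 22.2% of all windows. At least 1 of the 7-letter half-sites, with or without a partner, was found in 60 of the 63 (95.2%), against 72.4% of all windows. A CArG box was found in 5 of the 63 windows (7.94%), against 1.29% of all windows. These genes were ACTG1, ACTN1, TPM4, CNN2 and FLNA. ACTN1 and TPM4 have further windows, none of them with a CArG box. The windows with the box of the 4 measured genes follow, 5′ to 3′. Capitals mark the CArG box and, in ACTG1, also both half-sites of its ZTRE.

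TPM4 (chr19:16067288-16067587, plus strand): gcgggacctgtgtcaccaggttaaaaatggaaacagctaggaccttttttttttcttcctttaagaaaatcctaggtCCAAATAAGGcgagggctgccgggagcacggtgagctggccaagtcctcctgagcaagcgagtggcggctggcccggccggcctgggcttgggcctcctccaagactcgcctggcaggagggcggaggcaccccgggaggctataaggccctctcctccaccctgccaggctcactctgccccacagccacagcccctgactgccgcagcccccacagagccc
ACTG1 (chr17:81512750-81513049, minus strand): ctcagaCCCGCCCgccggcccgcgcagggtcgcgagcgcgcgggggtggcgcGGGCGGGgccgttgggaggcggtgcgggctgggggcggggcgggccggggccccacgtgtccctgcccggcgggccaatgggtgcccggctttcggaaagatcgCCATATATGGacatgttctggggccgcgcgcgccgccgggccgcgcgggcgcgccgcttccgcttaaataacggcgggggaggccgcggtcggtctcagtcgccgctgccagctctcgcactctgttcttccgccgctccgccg
ACTN1 (chr14:68977517-68977816, minus strand): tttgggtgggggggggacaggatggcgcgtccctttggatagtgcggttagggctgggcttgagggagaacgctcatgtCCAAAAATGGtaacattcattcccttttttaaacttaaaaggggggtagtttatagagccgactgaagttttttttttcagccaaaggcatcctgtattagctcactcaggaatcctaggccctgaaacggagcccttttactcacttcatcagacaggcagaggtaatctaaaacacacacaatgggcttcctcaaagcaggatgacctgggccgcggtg
CNN2 (chr19:1026358-1026657, plus strand): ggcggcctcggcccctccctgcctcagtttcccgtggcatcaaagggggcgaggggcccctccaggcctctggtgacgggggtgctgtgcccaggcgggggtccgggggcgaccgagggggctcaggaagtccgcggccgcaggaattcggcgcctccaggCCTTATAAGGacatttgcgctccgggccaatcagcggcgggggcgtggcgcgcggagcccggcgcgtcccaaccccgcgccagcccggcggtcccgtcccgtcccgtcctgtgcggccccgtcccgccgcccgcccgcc

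The box starts at position −173 from the start site in TPM4, −94 in ACTG1, −171 in ACTN1 and −89 in CNN2. A match is a run of letters and no measure of binding.

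Between 14454 and 16167 probes were detected per array. Control siRNA 2 replicate 3 correlated with the other arrays of its group at 0.945 to 0.948, against at least 0.971 within the other groups, and held the highest value of the 12 arrays for 9 of the 39 genes. The probe for 18S rRNA (RNA18SN5) read 14.55 and 14.74 on control siRNA 1 replicates 2 and 3, and 13.99 and 14.55 on ZNF658 siRNA 2 replicates 1 and 2. It read 11.56 on control siRNA 2 replicate 3 and 9.57 to 10.74 on the remaining 7 arrays (all values normalized log2 signals). These 5 arrays were also those with the highest median of the cytoskeleton genes, from 0.06 to 0.13 above the 12-array mean of each gene, while the other 7 lay between −0.10 and 0.01. The part of the 18S difference in the results was not tested. In bulk RNA, fewer cells with a transcript and less of it per cell cannot be told apart.

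**Figure D1:**
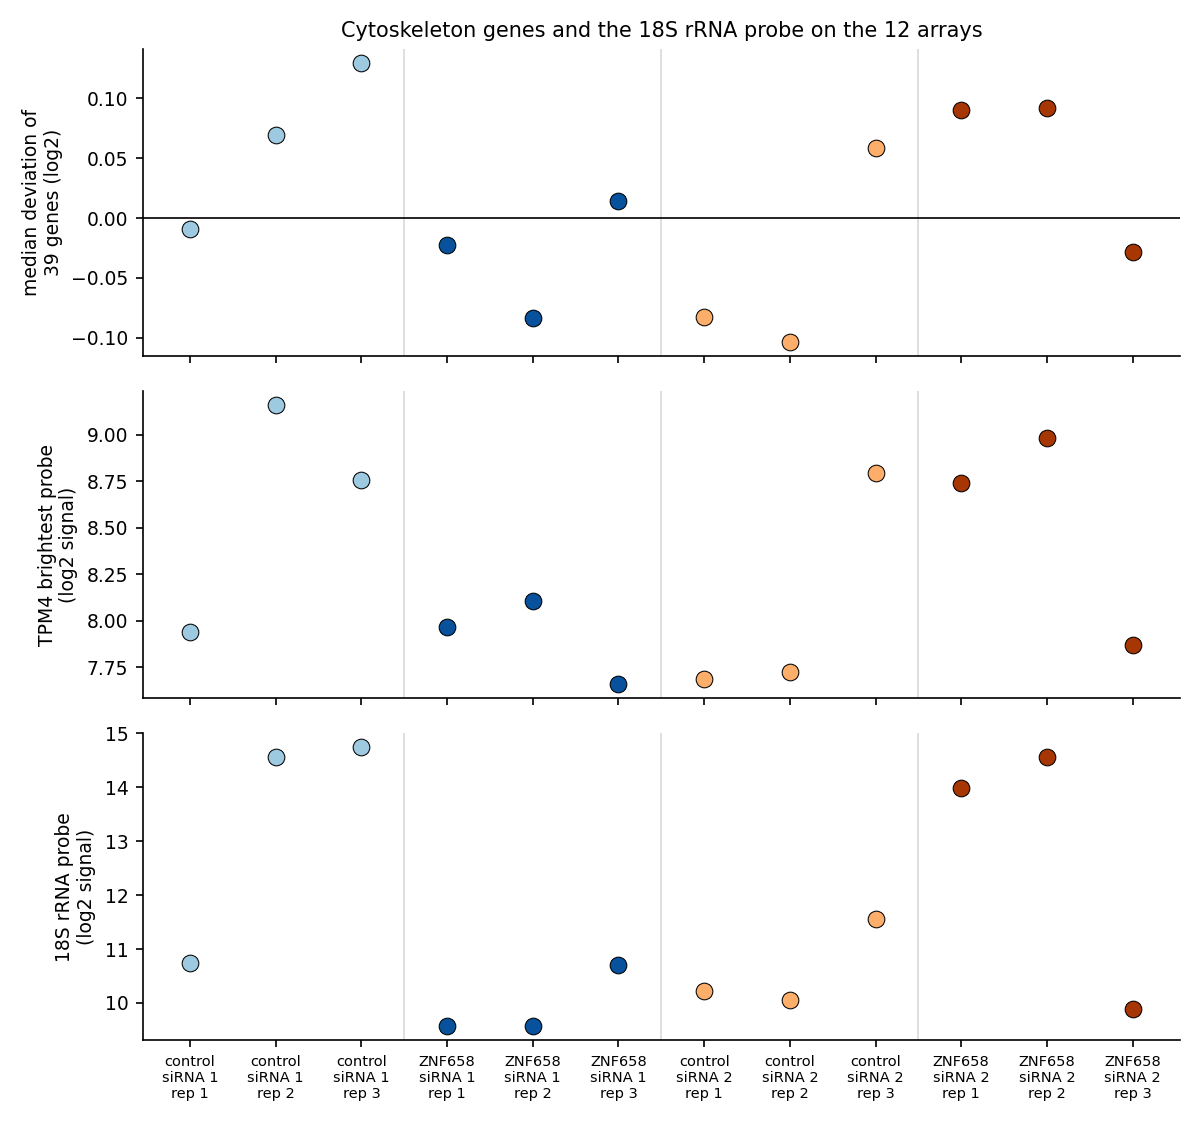
Upper panel, median over 39 genes of the difference from each gene's mean over the 12 arrays (log2). Middle and lower panels, normalized log2 signal of the brightest TPM4 probe and of the 18S rRNA probe on each array, colored by group. Control siRNA 1 replicates 2 and 3, control siRNA 2 replicate 3 and ZNF658 siRNA 2 replicates 1 and 2 are the 5 highest in each panel.

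With ZNF658 siRNA 1, the log2 fold change against control siRNA 1 was below 0 for 27 of the 39 genes and above 0 for 12 (all probes: 51.4% and 48.6%), with a median of −0.09 that turned to 0.10 under median scaling. With ZNF658 siRNA 2 against control siRNA 2, it was above 0 for 28 genes and below 0 for 11 (all probes: 50.1% and 49.9%), with a median of 0.10 that turned to −0.04 under median scaling. Over all tested probes the medians were −0.01 and 0.00. The 3701 brightest tested probes, which include those of 30 of the 39 genes, had medians of −0.02 and 0.01. None of the 39 genes passed the call (limma, Benjamini-Hochberg adjusted P under 0.05 and at least 1.2-fold) with either siRNA, where 0.0135% and 0% of all probes were called. The lowest adjusted P over the 39 was 0.69 with siRNA 1 and 0.82 with siRNA 2. At an unadjusted P under 0.05, 1 gene was above and 1 below its control with siRNA 1 (all probes: 4.32% and 2.89%), and 3 were above and 0 below with siRNA 2 (all probes: 3.29% and 2.36%, together 5.65%). The groups of 3 arrays did not overlap for 3 genes above and 4 below with siRNA 1 (all probes: 8.19% and 8.46%), and for 3 above and 1 below with siRNA 2 (all probes: 4.99% and 4.49%).

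The signs of both medians depended on the scaling between arrays. Median scaling in place of quantile normalization moved the median of all tested probes to 0.18 with siRNA 1 and −0.11 with siRNA 2, while the median of the 39 genes moved along with it. Relative to all probes, the genes then lay at −0.08 and 0.07, against −0.08 and 0.10 in the main fit. Signs given below are those of the main fit.

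The arrays of both comparisons are separate, so their gene-by-gene values can be set side by side. A log2 fold change below 0 with siRNA 1 and above 0 with siRNA 2 was seen for 23 of the 39 genes and 36 of the 61 probes, against 30.9% of all tested probes. The opposite pattern was seen for 7 genes. The 18S rRNA probe also had opposite signs, with −3.40 (SE 1.07) with siRNA 1 and 2.20 (SE 1.07) with siRNA 2. Its part in the signs of the 39 genes was not tested. The difference itself, the siRNA 2 effect minus the siRNA 1 effect, had a median of 0.21 over the 39 genes and 0.01 over all probes, and was above 0 for 30 of the 39 and below 0 for 9 (all probes: 51.1% and 48.9%). Under median scaling its median was −0.17, with −0.29 over all probes. No gene was called in this difference (0% of all probes), with a lowest adjusted P of 0.25, for TPM1 and TAGLN. At an unadjusted P under 0.05, 3 genes were above 0 and 1 below (all probes: 5.01% and 5.78%).

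**Figure D2:**
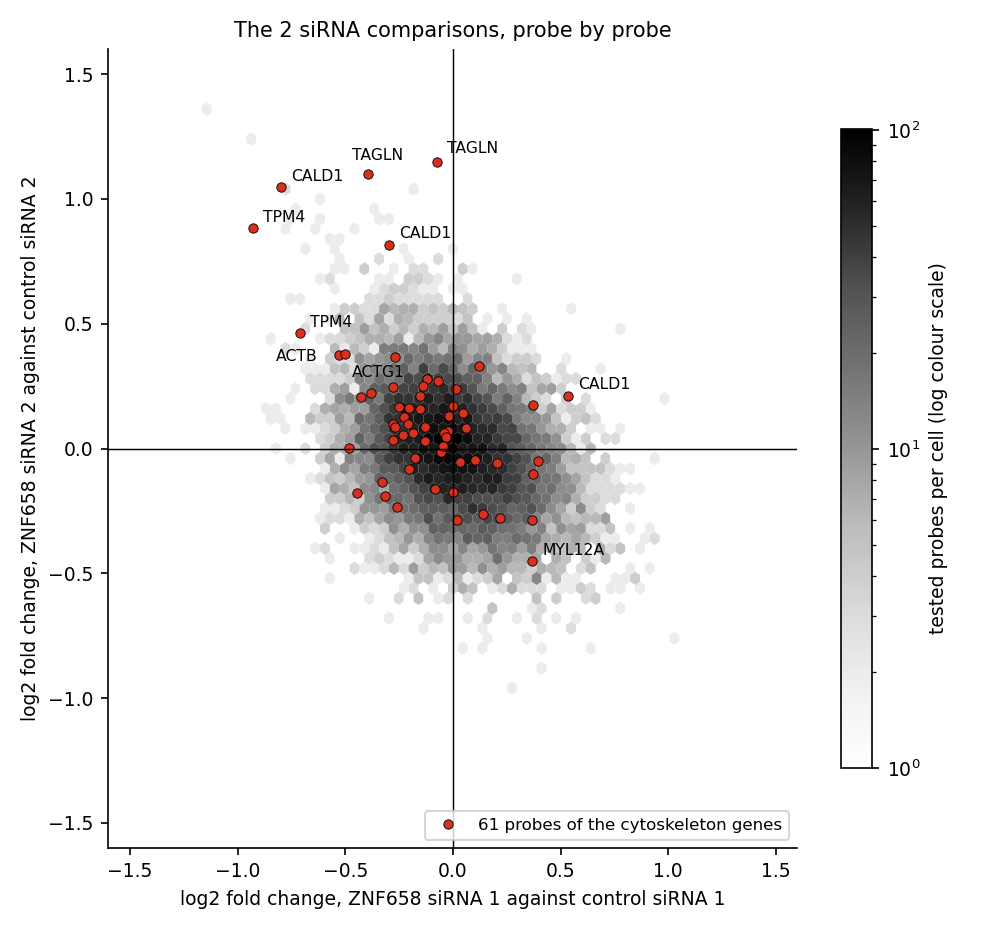
Log2 fold change of each tested probe with ZNF658 siRNA 1 (x axis) and ZNF658 siRNA 2 (y axis), each against the control of its supplier. The grey cells count all 14804 probes on a log color scale, 10 probes beyond 1.6 on an axis are not drawn, and red points are the 61 probes of the cytoskeleton genes, 36 of which lie left of 0 on the x axis and above 0 on the y axis.

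The result for siRNA 2 rested on which arrays entered. When replicate 3 of both groups of the siRNA 2 pair was left out, 268 of 14804 probes (1.81%) were called with siRNA 2, and 3 of them stood for the 39 genes: TAGLN with a log2 fold change of 1.00 (adjusted P = 0.022), ACTN4 with 1.12 (adjusted P = 0.031) and ACTB with 0.65 (adjusted P = 0.036). In the difference between both siRNA effects, 9.64% of all probes and 9 of the 39 genes were then called: TPM4, ACTN4, TAGLN, ACTB, VASP, TPM1, TPM2 and ARPC2 above 0 and RDX below. The 4 arrays that remain in that pair split by group in 18S signal. They read 13.99 and 14.55 with ZNF658 siRNA 2 and 10.22 and 10.06 with control siRNA 2. The arrays left out ran the other way, at 9.88 with ZNF658 siRNA 2 and 11.56 with control siRNA 2. With them the groups overlap in 18S signal. The part of this split in the calls was not tested. With array quality weights, 3 genes were called with siRNA 1 (all probes: 5.68%), namely TPM4 and EZR below and CALD1 above their control, and 3 with siRNA 2 (all probes: 4.05%), namely TAGLN, ACTB and TPM1 above. The same weights called 16 of the 39 genes in the difference between both effects (all probes: 18.4%) and 12 between the controls (all probes: 17%).

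**Figure D3:**
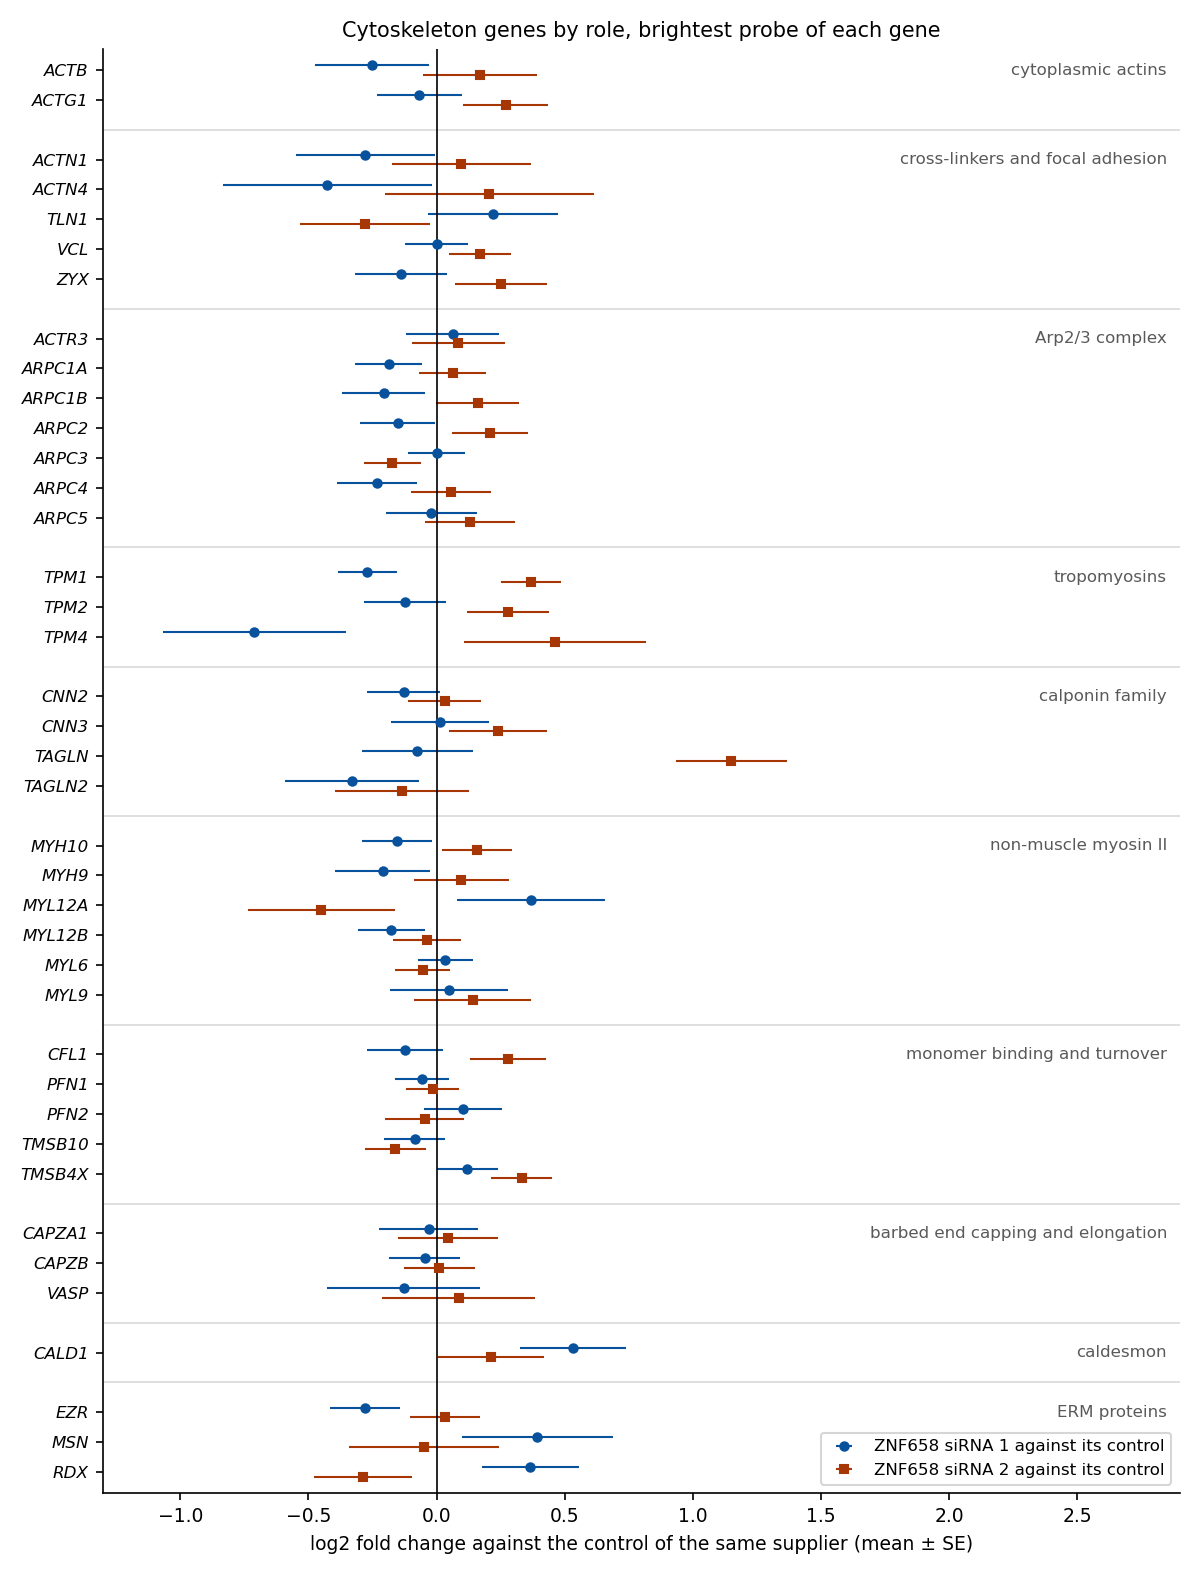
Log2 fold change of the brightest probe of each of the 39 genes with ZNF658 siRNA 1 (circles) and ZNF658 siRNA 2 (squares) against the control of the same supplier, with the standard error of the limma fit, grouped by role. TPM4 lies lowest with siRNA 1 (−0.71) and TAGLN highest with siRNA 2 (1.15).

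Each of the 3 measured tropomyosins had a log2 fold change below 0 with siRNA 1 and above 0 with siRNA 2, and none passed the call. Under median scaling TPM4 kept both signs (−0.51 and 0.35). TPM4, a low molecular weight tropomyosin of non-muscle cells, varied most between arrays. Its brightest probe read 7.96, 8.10 and 7.66 with ZNF658 siRNA 1 and 7.94, 9.16 and 8.76 with control siRNA 1. It read 8.74, 8.98 and 7.87 with ZNF658 siRNA 2 and 7.68, 7.72 and 8.80 with control siRNA 2. Values near 9 and values near 8 occurred in 3 of the 4 groups, only ZNF658 siRNA 1 had none of the high ones, and the groups overlapped in both comparisons. The 5 arrays above 8.5 are the 5 with the highest 18S signal. The log2 fold change was −0.71 (SE 0.36) with siRNA 1 and 0.46 (SE 0.36) with siRNA 2, with adjusted P values of 0.70 and 0.94. Leaving out 1 array moved the first from −1.05 (without control siRNA 1 replicate 1) to −0.44 (without control siRNA 1 replicate 2), and the second from 0.24 (without ZNF658 siRNA 2 replicate 2) to 0.83 (without control siRNA 2 replicate 3). The second TPM4 probe spanned a wider range over the 12 arrays, from 6.74 to 9.40, with −0.93 (SE 0.60) and 0.88 (SE 0.60).

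TPM1, which gives rise to many muscle and non-muscle isoforms by splicing, had the tightest groups of the 3. Its brightest probe read 11.50, 11.74 and 11.60 with ZNF658 siRNA 1, all below the 11.86, 11.86 and 11.93 of control siRNA 1. It read 12.07, 12.15 and 12.07 with ZNF658 siRNA 2, all above the 11.68, 11.73 and 11.78 of control siRNA 2. The groups thus did not overlap in either comparison, and in opposite directions, which held for 1.49% of all tested probes, and for 0.898% in this order of directions. The log2 fold changes were −0.27 (SE 0.12) and 0.37 (SE 0.12), and their difference was 0.64 (SE 0.16, adjusted P = 0.25). The second TPM1 probe did not share this, with −0.02 (SE 0.14) and 0.07 (SE 0.14). The third, detected on 8 of the 12 arrays, had 0.37 (SE 0.28) and 0.17 (SE 0.28). Only ZNF658 siRNA 2, the group with its highest mean, had it detected on all 3 arrays, so it was tested through that group alone.

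TPM2, the tropomyosin first known from slow and smooth muscle, separated the arrays by supplier. The brightest probe read 9.79, 9.80 and 9.84 with ZNF658 siRNA 1 and 9.83, 9.92 and 10.05 with control siRNA 1. It read 10.78, 10.92 and 10.53 with ZNF658 siRNA 2 and 10.30, 10.34 and 10.75 with control siRNA 2. All 6 Dharmacon arrays lay above all 6 Ambion arrays, as for 1.47% of tested probes. Between both controls the log2 fold change was 0.53 (SE 0.16, adjusted P = 0.11). For the second TPM2 probe it was 0.83 (SE 0.27, adjusted P = 0.15). That probe separated the suppliers only narrowly, with 8.993 on control siRNA 2 replicate 1 and 8.986 on control siRNA 1 replicate 3. Against their own controls the brightest probe had −0.12 (SE 0.16) with siRNA 1 and 0.28 (SE 0.16) with siRNA 2.

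**Figure D4:**
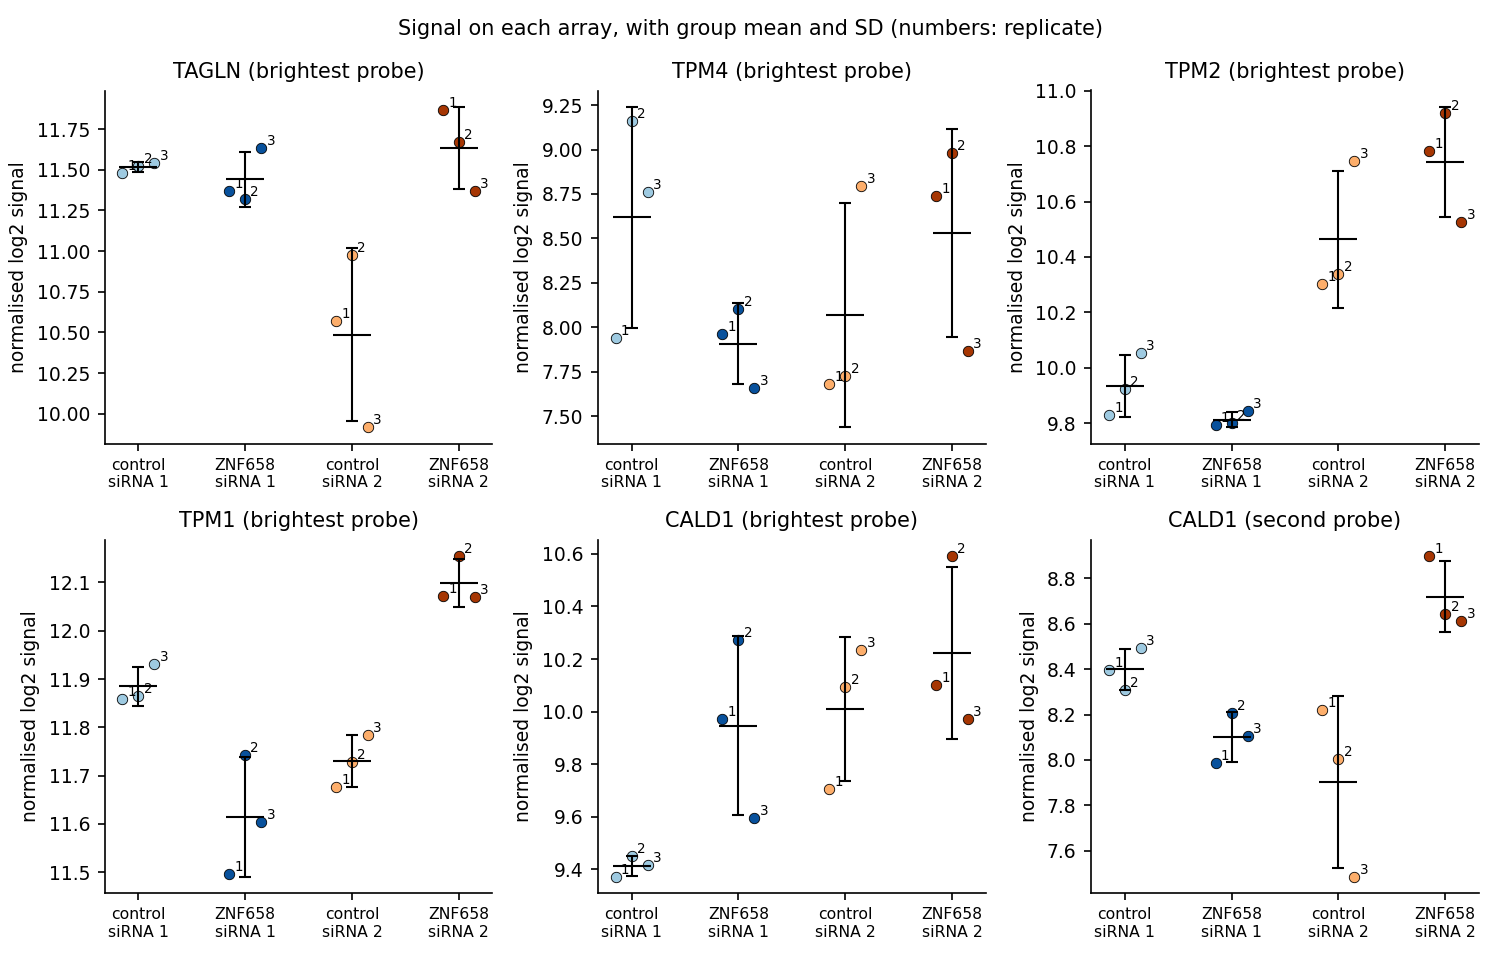
Normalized log2 signal on each array (points, numbered by replicate) with the mean and SD of each group of 3 (bars), for the brightest probes of TAGLN, TPM4, TPM2, TPM1 and CALD1 and the second CALD1 probe. The y axes differ between panels and do not start at 0. The 3 control siRNA 2 arrays are the lowest for TAGLN, the 6 arrays with Dharmacon siRNA are the highest for TPM2, and both CALD1 probes run opposite ways between control siRNA 1 and ZNF658 siRNA 1.

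In the calponin family, TAGLN (transgelin, or SM22α), an actin-binding protein that marks smooth muscle and is a known target of serum response factor, had the largest value of the 39 genes with siRNA 2. It read 11.87, 11.67 and 11.37 with ZNF658 siRNA 2 and 10.57, 10.97 and 9.92 with control siRNA 2. The groups did not overlap (as for 4.99% of all probes in this direction), and the log2 fold change was 1.15 (SE 0.22), or 2.22-fold, with an unadjusted limma P of 8.5e-05 and an adjusted P of 0.82. With ZNF658 siRNA 1 it read 11.37, 11.32 and 11.64, against 11.48, 11.53 and 11.54 with control siRNA 1, and the log2 fold change was −0.07 (SE 0.22) between overlapping groups. These values are of the brightest probe, on which the low arrays were those of control siRNA 2. The other 9 arrays lay between 11.32 and 11.87.

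Control siRNA 2 was accordingly the group in which TAGLN differed from the other control. It was lower than with control siRNA 1 by a log2 fold change of −1.03 (SE 0.22), or 2.04-fold, with an adjusted P of 0.022, and TAGLN was the only one of the 39 genes called between the controls in the main fit. In this comparison 301 of 14804 probes (2.03%) were called, 1.53% of all probes in this direction and 0.507% in the other. The comparison shares its control arrays with both siRNA comparisons. The second TAGLN probe had −1.03 (SE 0.31, adjusted P = 0.11) between the controls, 1.10 (SE 0.31) with siRNA 2 and −0.39 (SE 0.31) with siRNA 1. On that probe control siRNA 2 read 7.21, 7.81 and 8.60, and did not stand apart from the other arrays. Replicate 3, at 8.60, lay above the 8.48, 8.54 and 8.51 of ZNF658 siRNA 1. It also lay above the 8.41 of ZNF658 siRNA 2 replicate 3. Leaving out 1 control siRNA 1 array, or fitting only the 6 control arrays, or median scaling ended the call for the brightest probe. Without replicate 3 of both groups of the siRNA 2 pair, CFL1, ZYX and VASP were called beside TAGLN (all probes: 5.53%), and with array quality weights 12 genes were (all probes: 17%), TPM2 and CALD1 above 0 and the other 10 below. Over all alternatives, its log2 fold change between the controls stayed between −1.27 and −0.74.

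TAGLN2, the transgelin of epithelial and other non-muscle cells, did not follow TAGLN. It read 11.28, 11.33 and 11.37 with ZNF658 siRNA 1 and 11.66, 11.47 and 11.84 with control siRNA 1, without overlap (as for 8.46% of all probes in this direction), and the log2 fold change was −0.33 (SE 0.26, adjusted P = 0.79). With ZNF658 siRNA 2 it read 11.65, 12.21 and 11.50, against 11.50, 11.56 and 12.70 with control siRNA 2, and the log2 fold change was −0.14 (SE 0.26). The highest value, 12.70, was on control siRNA 2 replicate 3. The second TAGLN2 probe gave −0.32 and −0.19. CNN2 and CNN3, calponins of non-muscle cells, had −0.13 and 0.01 with siRNA 1 and 0.03 and 0.24 with siRNA 2. The second CNN2 probe, not detected on 2 of the 12 arrays, had −0.26 and −0.23, and 0.30 between the controls where the brightest had −0.32.

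Caldesmon (CALD1) binds actin, tropomyosin and myosin and restrains the motor, and its 3 probes differed in sign with siRNA 1. The brightest read 9.97, 10.27 and 9.59 with ZNF658 siRNA 1, all above the 9.37, 9.45 and 9.42 of control siRNA 1, and the log2 fold change was 0.53 (SE 0.21, adjusted P = 0.69). The second read 7.99, 8.21 and 8.11 with ZNF658 siRNA 1, all below the 8.39, 8.31 and 8.49 of control siRNA 1, with −0.30 (SE 0.19). The third CALD1 probe read 6.47, 5.88 and 5.78 against 6.94, 6.96 and 6.62, with −0.80 (SE 0.30). It was not detected on 1 ZNF658 siRNA 1 array. The direction of CALD1 with siRNA 1 therefore depends on the probe.

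With siRNA 2 all 3 CALD1 probes were above the control. The brightest read 10.10, 10.59 and 9.97 against 9.70, 10.09 and 10.23 with control siRNA 2, overlapping, with a log2 fold change of 0.21 (SE 0.21). The second read 8.90, 8.65 and 8.61 against 8.22, 8.00 and 7.49, and the third 7.58, 7.51 and 6.35 against 6.15, 6.15 and 6.00, both without overlap. Their log2 fold changes were 0.82 (SE 0.19) and 1.05 (SE 0.30), each with an adjusted P of 0.82. Between the controls the brightest probe had 0.60 (SE 0.21, adjusted P = 0.18), and the second and the third had −0.50 (SE 0.19) and −0.74 (SE 0.30). Against control siRNA 2 in place of control siRNA 1, the brightest probe had −0.06 with ZNF658 siRNA 1, the opposite sign.

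The cytoplasmic actin genes ACTB and ACTG1 encode nearly identical proteins that make up the filaments of epithelial cells. The brightest ACTB probe read 13.67, 13.69 and 13.65 with ZNF658 siRNA 1, all below the 13.73, 13.92 and 14.11 of control siRNA 1, and the log2 fold change was −0.25 (SE 0.22, adjusted P = 0.81). With ZNF658 siRNA 2 it read 14.18, 14.20 and 13.81, and with control siRNA 2 13.46, 13.62 and 14.60, a log2 fold change of 0.17 (SE 0.22). The highest of all was again control siRNA 2 replicate 3. The second ACTB probe gave −0.53 (SE 0.23) and 0.37 (SE 0.23). The third gave the opposite signs, 0.14 (SE 0.28) and −0.26 (SE 0.28).

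ACTG1 read 14.44, 14.79 and 14.35 with ZNF658 siRNA 1 and 14.42, 14.61 and 14.76 with control siRNA 1 on its brightest probe, with −0.07 (SE 0.17). It read 14.63, 14.90 and 14.43 with ZNF658 siRNA 2 and 14.14, 14.29 and 14.72 with control siRNA 2, with 0.27 (SE 0.17). Both pairs of groups overlapped. The second ACTG1 probe separated them. It read 13.03, 13.31 and 13.51 against 13.91, 13.79 and 13.65 in the siRNA 1 pair, and 13.62, 13.75 and 13.32 against 13.13, 13.15 and 13.27 in the siRNA 2 pair. Its log2 fold changes were −0.50 (SE 0.14) and 0.38 (SE 0.14), with a difference of 0.88 (SE 0.20, adjusted P = 0.25). Between the controls it was lower with control siRNA 2, by −0.60 (SE 0.14, adjusted P = 0.042). It was the other of the 2 called among the 61 probes there, beside the brightest TAGLN probe. The coding sequences of both actin genes are nearly identical, and whether a probe also reads the other transcript was not examined.

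**Figure D5:**
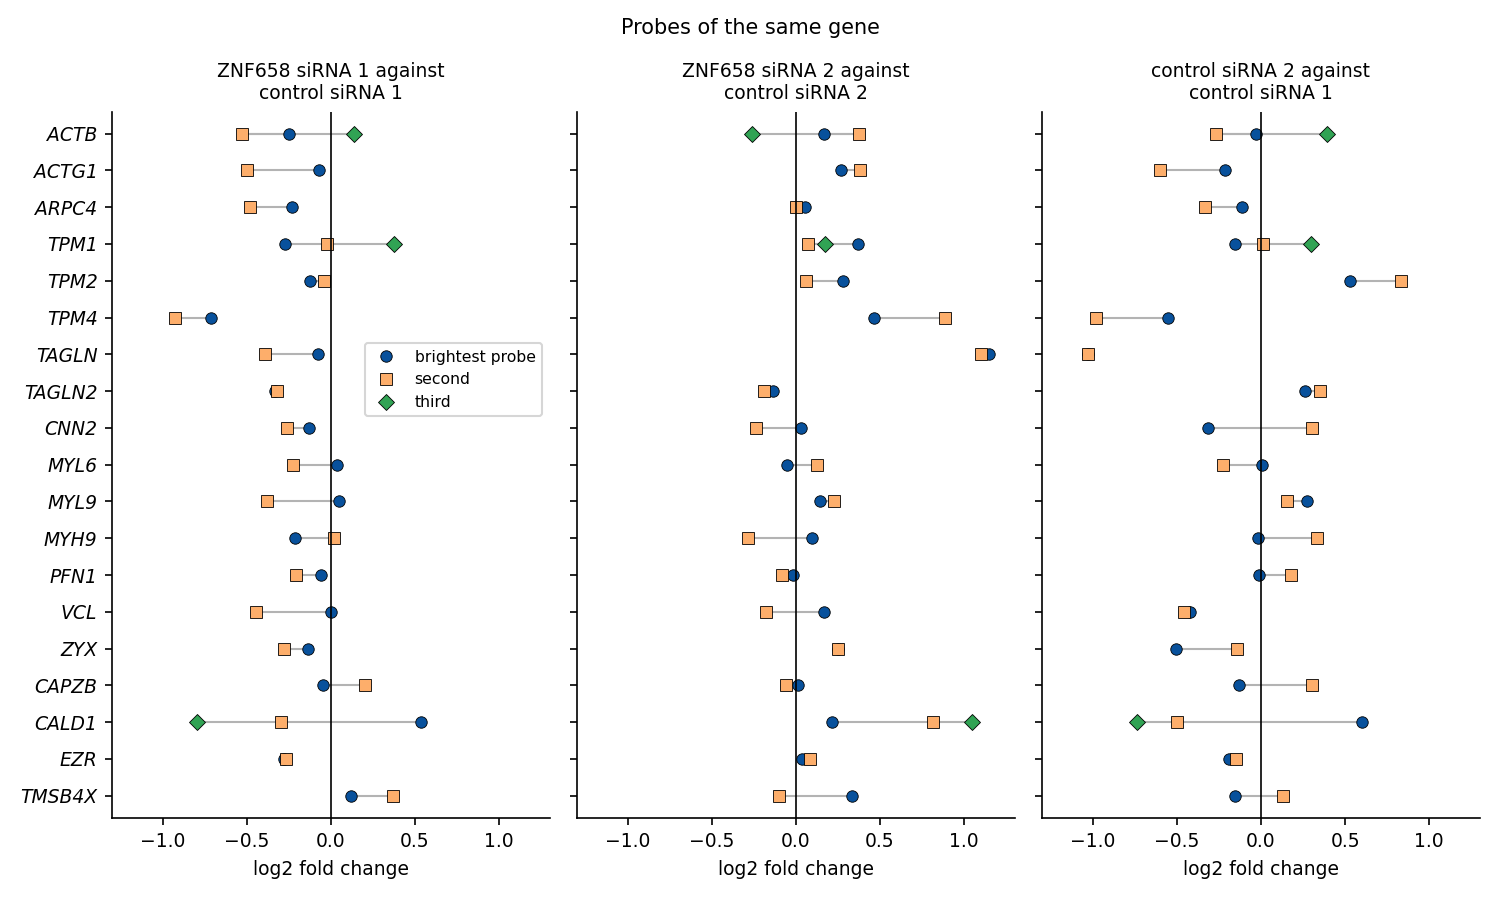
Log2 fold change of each probe of the 19 genes with several tested probes, in the siRNA 1, siRNA 2 and control comparisons; circles are the brightest probe, squares the second and diamonds the third. CALD1 spans −0.80 to 0.53 with siRNA 1, while both probes of TPM4, TAGLN and TPM2 lie close together or on the same side of 0.

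Of the 19 genes with more than 1 tested probe, 7 had probes of opposite sign with siRNA 1 and 7 with siRNA 2. Which isoforms each probe reads was not examined.

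Among the cross-linkers, ACTN1 and ACTN4 encode non-muscle α-actinins, which cross-link filaments. ACTN4 read 9.09, 9.05 and 9.14 with ZNF658 siRNA 1, all below the 9.26, 9.65 and 9.65 of control siRNA 1, with a log2 fold change of −0.43 (SE 0.41, adjusted P = 0.82). It read 9.58, 10.32 and 9.20 with ZNF658 siRNA 2 and 8.81, 8.86 and 10.81 with control siRNA 2, with 0.21 (SE 0.41). Without replicate 3 of both groups that value was 1.12, as given above, and the array left out of the control was the highest of the 12. ACTN1 had −0.28 (SE 0.27) and 0.10 (SE 0.27).

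Vinculin, zyxin and talin connect filaments to integrin adhesions. VCL read 12.03, 12.00 and 11.78 with ZNF658 siRNA 1, 11.96, 11.95 and 11.90 with control siRNA 1, 11.74, 11.63 and 11.67 with ZNF658 siRNA 2 and 11.40, 11.65 and 11.48 with control siRNA 2. All 6 Dharmacon arrays lay below all 6 Ambion arrays, as for 2.31% of tested probes, and the log2 fold change between the controls was −0.42 (SE 0.12, adjusted P = 0.097). ZYX read 9.32, 9.33 and 9.48 with control siRNA 1 and 8.83, 8.66 and 9.11 with control siRNA 2, without overlap, with −0.51 (SE 0.18, adjusted P = 0.18). With ZNF658 siRNA 1 it read 9.16, 9.07 and 9.48, a log2 fold change of −0.14 (SE 0.18), and with ZNF658 siRNA 2 9.15, 9.32 and 8.89, a log2 fold change of 0.25 (SE 0.18). The second VCL probe had −0.45 and −0.18 with siRNA 1 and 2, where the brightest had 0.00 and 0.17. TLN1 ran against the others, at 0.22 (SE 0.25) and −0.28 (SE 0.25).

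Ezrin (EZR), the ERM protein of the enterocyte brush border, had −0.28 (SE 0.14) with siRNA 1 and 0.03 (SE 0.14) with siRNA 2. Radixin (RDX) read 10.43, 10.81 and 10.25 with ZNF658 siRNA 1 and 10.26, 9.97 and 10.16 with control siRNA 1, with 0.37 (SE 0.19, adjusted P = 0.70). It read 10.12, 9.85 and 10.19 with ZNF658 siRNA 2 and 10.28, 10.68 and 10.05 with control siRNA 2, with −0.29 (SE 0.19). Leaving out 1 array moved the first from 0.21 (without ZNF658 siRNA 1 replicate 2) to 0.49 (without ZNF658 siRNA 1 replicate 3), and the second from −0.43 (without control siRNA 2 replicate 3) to −0.11 (without control siRNA 2 replicate 2). Radixin thus ran opposite to ezrin with siRNA 1. Moesin (MSN) lay close to the detection level, at 6.06, 6.46 and 6.18 with ZNF658 siRNA 1 and 5.92, 5.91 and 5.68 with control siRNA 1, with 0.39 (SE 0.29). It was detected on 2 of 3 arrays in each of the other 3 groups, so it entered the tests through ZNF658 siRNA 1 alone. That group also had its highest mean. MSN is counted with siRNA 1 among the genes above without overlap and those at least 1.2-fold above.

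MYL12A, a regulatory light chain of non-muscle myosin II, read 13.20, 13.09 and 11.96 with ZNF658 siRNA 1 and 12.05, 12.75 and 12.35 with control siRNA 1, with 0.37 (SE 0.29). It read 12.06, 12.53 and 11.69 with ZNF658 siRNA 2 and 12.42, 12.78 and 12.43 with control siRNA 2, with −0.45 (SE 0.29). The groups overlapped in both. Leaving out 1 array moved the siRNA 1 value from 0.14 (without ZNF658 siRNA 1 replicate 1) to 0.76 (without ZNF658 siRNA 1 replicate 3), and the siRNA 2 value from −0.67 (without ZNF658 siRNA 2 replicate 2) to −0.25 (without ZNF658 siRNA 2 replicate 3). The heavy chains MYH9 and MYH10 had −0.21 and −0.15 with siRNA 1 and 0.10 and 0.16 with siRNA 2. The second MYH9 probe had the opposite signs, 0.02 and −0.29. On their brightest probes, the light chains MYL6, MYL9 and MYL12B lay between −0.18 and 0.05 with siRNA 1 and between −0.05 and 0.14 with siRNA 2. The second MYL6 probe had −0.23 and 0.13, and the second MYL9 probe −0.38 and 0.22, so the sign of both genes with siRNA 1 depended on the probe.

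The Arp2/3 complex, which starts branched filaments, was measured with 7 genes. With siRNA 1, 5 were below 0, between −0.23 (ARPC4) and −0.02 (ARPC5), and with siRNA 2, 6 were above 0, up to 0.21 for ARPC2 (SE 0.15). ARPC3 was below 0 with siRNA 2, at −0.17 (SE 0.11). Of the 7, only its groups did not overlap in that comparison (all probes: 4.49% in this direction). None passed the call. TMSB4X, thymosin β4, the main store of free actin monomers in many cells, read 15.12, 15.11 and 15.34 with ZNF658 siRNA 2 and 15.08, 14.87 and 14.62 with control siRNA 2, without overlap, with 0.33 (SE 0.12, adjusted P = 0.84). With ZNF658 siRNA 1 it read 15.03, 15.23 and 15.13, against 15.08, 15.06 and 14.90, with 0.12 (SE 0.12). Its second probe had 0.37 (SE 0.17) with siRNA 1 and −0.10 (SE 0.17) with siRNA 2.

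Cofilin (CFL1) had −0.12 (SE 0.15) with siRNA 1, 0.28 (SE 0.15) with siRNA 2 and −0.39 (SE 0.15, adjusted P = 0.21) between the controls, where the groups did not overlap. Without control siRNA 2 replicate 3 it was called between the controls, at −0.55 (adjusted P = 0.036), where 3.86% of all probes were called. The profilins PFN1 and PFN2, TMSB10 and the capping proteins CAPZA1 and CAPZB lay between −0.09 and 0.10 with siRNA 1 and between −0.16 and 0.04 with siRNA 2 on their brightest probes. The second PFN1 probe had −0.20 and −0.08. The second CAPZB probe had 0.20 and −0.06, opposite in sign to the brightest, at −0.05 and 0.01. VASP, which promotes elongation, had −0.13 (SE 0.30) and 0.09 (SE 0.30).

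Between both non-targeting controls, the log2 fold change of control siRNA 2 against control siRNA 1 was below 0 for 25 of the 39 genes and above 0 for 14 (all probes: 49% and 51%), with a median of −0.05, against 0.01 over all probes. Under median scaling these medians were 0.15 and 0.17. At an unadjusted P under 0.05, 6 were below and 2 above (all probes: 8.07% and 6.87%). Groups did not overlap for 7 genes below and 3 above, against 11.3% and 9.22% of all probes. A difference of at least 1.2-fold between the group means was seen for 8 genes below and 3 above between the controls, 6 below and 4 above with siRNA 1, and 3 below and 7 above with siRNA 2. The shares of all probes below and above were 19.2% and 20.6% between the controls, 15.4% and 16.2% with siRNA 1, and 13.3% and 12.6% with siRNA 2.

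Genes around the cytoskeleton, in 5 further lists, gave 0 calls with either siRNA (all probes: 0.0135% and 0%). Of 7 measured regulators and targets of serum response factor, 2 were above control with siRNA 1 at an unadjusted P under 0.05 and 0 below (all probes: 4.32% and 2.89%). With siRNA 2, 0 were above and 1 below (all probes: 3.29% and 2.36%), and between the controls 3 were above and 0 below (all probes: 6.87% and 8.07%). The coactivator MRTFB had 0.78 (SE 0.25, adjusted P = 0.69) with siRNA 1 and −0.66 (SE 0.25, adjusted P = 0.84) with siRNA 2. MRTFB lay close to the detection level and is counted in each of these 3 comparisons. It was detected on 2, 0 and 1 of 3 arrays with ZNF658 siRNA 1, control siRNA 1 and ZNF658 siRNA 2. Only control siRNA 2 had it detected on all 3 arrays, so it entered the tests through that group alone. ANKRD1 read 7.21, 7.53 and 7.26 with ZNF658 siRNA 1 and 6.42, 6.46 and 5.72 with control siRNA 1, with 1.14 (SE 0.30, adjusted P = 0.69), and −0.03 with siRNA 2. It also read 7.32, 7.39 and 6.21 with control siRNA 2, with the first 2 of these above all control siRNA 1 arrays. Of 31 other actin-binding genes, 1 was above and 2 below with siRNA 1 at that level (all probes: 4.32% and 2.89%), and 4 above and 1 below with siRNA 2 (all probes: 3.29% and 2.36%). The spectrin SPTBN1 was among both, with −0.49 and 0.71.

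Between the controls, 5 of the 68 measured genes of these lists were called (all probes: 2.03%). The bundling protein LCP1 (−1.15, adjusted P = 0.0020) and the integrin ITGA5 (−0.98, adjusted P = 0.029) were lower with control siRNA 2, as were the myosin light chain MYL3 (−1.38, adjusted P = 0.013) and MYO5A (−1.03, adjusted P = 0.037). The microvillar bundling protein PLS1 was higher (0.98, adjusted P = 0.014). None of the 13 measured genes of the WASP and WAVE group was called there.

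Markers of the labeled line and of other cell types were counted. Measured here means a tested probe, so the counts are no test of the identity of the line. Of 19 enterocyte and colon epithelium markers 10 were measured, namely CDX1, CDX2, EPCAM, CDH1, KRT8, KRT18, KRT19, APOA1, TFF3 and CDH17. The others, HNF4A, KRT20, VIL1, LGALS4, FABP1, APOA4, ALPI, SI and GPA33, had no tested probe under their symbols. Of 11 smooth muscle markers 3 were measured, TAGLN, MYL9 and ACTG2. ACTA2, MYH11 and DES had no tested probe under their symbols. Of 13 fibroblast markers 4 were measured (VIM, COL1A1, COL1A2 and COL6A3), and of 7 leukocyte and endothelial markers 1 (CD14). Apart from TAGLN, none of these markers was called in any comparison. Beside the TAGLN difference between the controls, the smooth muscle markers MYL9 and ACTG2 had 0.28 and −0.49, with adjusted P values of 0.63 and 0.50.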

How the data were processed

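Total RNA of 12 Caco-2 samples was hybridized as biotin-labeled cRNA to Illumina HT12 bead arrays. The authors deposited non-normalized intensity values with a detection P-value per probe, and a log2 table of 21105 probes, for which the labels name lumi (version not given in the sources used here). The deposited intensity values of 47231 probes were background corrected with the detection P-values (normexp, offset 16), quantile normalized and log2 transformed in limma 3.58.1 (R 4.3.3). Testing was limited to the 14804 probes that all 3 arrays of some group detected at P below 0.01. The number of arrays limits the precision.

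The 4 groups were fitted together in limma with an intensity trend, and P-values were adjusted by Benjamini-Hochberg over all tested probes. A call required an adjusted P under 0.05 and at least 1.2-fold. Groups came from the sample labels. Probes were named through GEO's platform annotation, and 2936 tested probes had no single symbol there. Per-array values are given for the 6 genes with the largest absolute log2 fold change in each comparison and for the tropomyosins, transgelins and cytoplasmic actins, and other probes where they differ in sign or by over 0.5. Values added for other genes were chosen after they were seen. The genes and lists were chosen with earlier results of these data known. The fit was tested on simulated data. Alternatives covered background, scaling, filter, weights, controls, arrays left out, rank products and the authors' deposited log2 table. The results of 1 further gene list are not reported here.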

Additional observations from a re-analysis of the deposited data

Results flagged for a closer look

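For 4 of the 61 probes, the groups did not overlap with either siRNA and lay on opposite sides, which held for 1.49% of all tested probes. The difference between both siRNA effects was tested in limma, and none was called (adjusted P = 0.25 for each of the 4). The second ACTG1 probe had a log2 fold change of −0.50 with siRNA 1 and 0.38 with siRNA 2, a difference of 0.88. The brightest ACTG1 probe had −0.07 and 0.27, with overlapping groups. The brightest TPM1 probe had −0.27 and 0.37, a difference of 0.64. The second TPM1 probe had −0.02 and 0.07, and the third 0.37 and 0.17. The second CALD1 probe had −0.30 and 0.82, a difference of 1.12. The third CALD1 probe had −0.80 and 1.05, a difference of 1.85, while the brightest CALD1 probe had 0.53 and 0.21.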

How the results depend on the processing

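In the main fit 2, 0, 0 and 301 probes were called with siRNA 1, with siRNA 2, in the difference between both effects and between the controls. Median scaling called 10 with siRNA 1, 51 in the difference and 169 between the controls, and gave medians of the 39 genes of 0.10 with siRNA 1, −0.043 with siRNA 2, −0.17 in the difference and 0.15 between the controls. Array quality weights called 841, 600, 2729 and 2516, with a median of 0.33 in the difference. Without replicate 3 of both groups of the siRNA 2 pair, 268 were called with siRNA 2, 1427 in the difference and 819 between the controls, with medians of 0.19, 0.35 and −0.13. Rank products called 57 with siRNA 1, 15 with siRNA 2 and 155 between the controls, none of them among the 39 genes. Without a detection filter 184 were called between the controls. With detection on all 12 arrays, 0 were called with siRNA 1 and 170 between the controls. A fit of the 6 control arrays alone called 101. With control siRNA 2 as its control, siRNA 1 had 161 calls (1.09% of all probes), and CALD1 had −0.065. Of the 39 genes only TAGLN was called there, at 0.96 (limma adjusted P = 0.046). The replicate block left 1 call with siRNA 1. Same-numbered arrays deviated with a correlation of −0.59 to 0.40, so the numbers were not taken as pairs.

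Leaving out 1 array gave 1 to 7 calls with siRNA 1, 0 to 0 with siRNA 2, 0 to 26 in the difference and 127 to 572 between the controls. The medians then ranged from −0.14 to −0.06, 0.04 to 0.15, 0.18 to 0.29 and −0.13 to −0.0073. The highest count between the controls, 572, was without control siRNA 2 replicate 3, and the lowest, 127, without control siRNA 1 replicate 2. The causes were not tested.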
